A study of Rattus norvegicus with 4 samples.

Results

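Notch receptors, their ligands and 2 of their target genes were followed in cultures labelled as olfactory ensheathing cells, glia that enclose bundles of olfactory axons on their way to the brain. The genes were the receptors Notch1, Notch2, Notch3 and Notch4, the ligands Jag1, Jag2, Dll1 and Dll4, and the targets Hes1 and Hey1. They were taken by name alone, as every gene probe whose name on the array was one of the 10, after a trailing tag for a predicted or mapped gene was removed. This gave 10 probes, 1 for each gene, of 41012 gene probes with 35655 distinct names.

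In Notch signalling, a ligand on 1 cell binds a receptor on its neighbour. The receptor is then cut by an ADAM protease and by gamma-secretase, and its freed intracellular part enters the nucleus. There it joins the DNA-binding protein RBPJ and a Mastermind protein and switches on genes of the Hes and Hey families, which encode transcriptional repressors. In mice, the pathway is known in the Schwann cell lineage, the close relatives of ensheathing glia, where it drives the formation of Schwann cells from their precursors and opposes myelination. Notch3 is best known from vascular smooth muscle and pericytes.

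Cultures from male Fischer rats were separated by flow cytometry into p75High cells, with much of the neurotrophin receptor p75 (encoded by Ngfr) on their surface, and p75Low cells, with little. Each of 4 biological replicates gave 1 p75High and 1 p75Low sample of 98% purity, whose amplified cDNA was hybridised together on 1 two-colour Agilent array of 45018 spots. Cy5 marked p75High and Cy3 marked p75Low on every array, so dye and population cannot be told apart. The labels do not give the age of the rats. They also do not name separate animals or cultures behind the replicates, and p-values therefore cover only the variation among these samples, part of which may be technical.

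A ratio is the log2 of p75High over p75Low on 1 array, given as mean ± SD over the 4 arrays, and a level is the normalized log2 brightness of a probe in 1 population. A level depends on the probe, so levels of a gene are compared between populations and not with those of another gene. Brightness over probes served only to choose which markers to name and for the sums over marker lists. A gene passed when its adjusted p from limma, corrected over 24872 tested probes, was under 0.05. Depending on the array, 22464 to 28062 probes exceeded background clearly in p75High and 23044 to 26174 did so in p75Low. Arrays resembled each other weakly, with correlations of their ratios across probes between 0.17 and 0.246. The sort itself was visible in Ngfr, with levels of 12.88, 13.76, 13.42 and 13.86 in p75High against 6.81, 7.60, 8.41 and 7.90 in p75Low for replicates 1 to 4.

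The label of ensheathing cells was checked against marker genes. All 10 markers of ensheathing and Schwann glia were measured, with a median ratio of 1.57. The 1 that passed was Ngfr, which encodes the p75 of the sort gate and so cannot check the label. None of the others passed. The summed normalized brightness of all 10, Ngfr included, was 31118 to 52604 in p75High and 2835 to 15088 in p75Low. Markers of microglia and macrophages were bright in p75Low. Their sum was 3969 to 9279 in p75High and 181745 to 289227 in p75Low, and by the brightest probe of each gene 7 of 9 passed as lower in p75High and all 9 had a negative ratio on every array (median -4.58). Other kept probes did not all follow, since those of Csf1r, a receptor of macrophage growth factors, read 0.41 ± 0.38 and -0.25 ± 0.25, against -6.08 ± 0.61 by its brightest, and the second probe of Cd14 was at 0.53 in replicate 4. The markers named by the rule were Tyrobp, an adaptor of immune receptors (-4.58 ± 0.77), and Aif1, a calcium-binding protein of microglia (-5.36 ± 0.62). In p75Low the markers go against a label of ensheathing glia alone. In p75High they do not settle it, since fibroblast markers, described further below, summed to 60713 to 84353 there. That sum lay above the 31118 to 52604 of the ensheathing and Schwann glia markers, although the 2 lists rest on different probes. The terms p75High and p75Low are used below as names of the sort gates. For every ratio below, fewer cells of a type and less RNA per cell cannot be told apart.

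Of the 10 Notch genes, Notch3 was the 1 that passed. It was higher in p75High, against a background of 0.655% of tested probes that passed in either direction, 0.261% higher and 0.394% lower. Notch1 and Jag1 were the other genes with an unadjusted p under 0.05, both higher in p75High, and neither passed the adjustment. Of the 24872 tested probes, 1431 were higher and 1687 lower at an unadjusted p under 0.05. The median ratio of the 10 genes was 0.46, beside -0.03 over all kept probes. It was 1.08 with the scanner's own ratios, 0.70 with the stricter filter, which leaves out Hes1, and 0.24 without replicate 4. The median SD of the ratio over arrays was 0.53 for the 10 genes beside 1.18 over all kept probes. These medians were not matched for brightness, and the dim probes of Hes1, Dll4 and Jag2 are among the 10. By role, the median ratio was 1.23 for the receptors, -0.39 for the ligands and 0.47 for the targets.

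**Figure D1:**
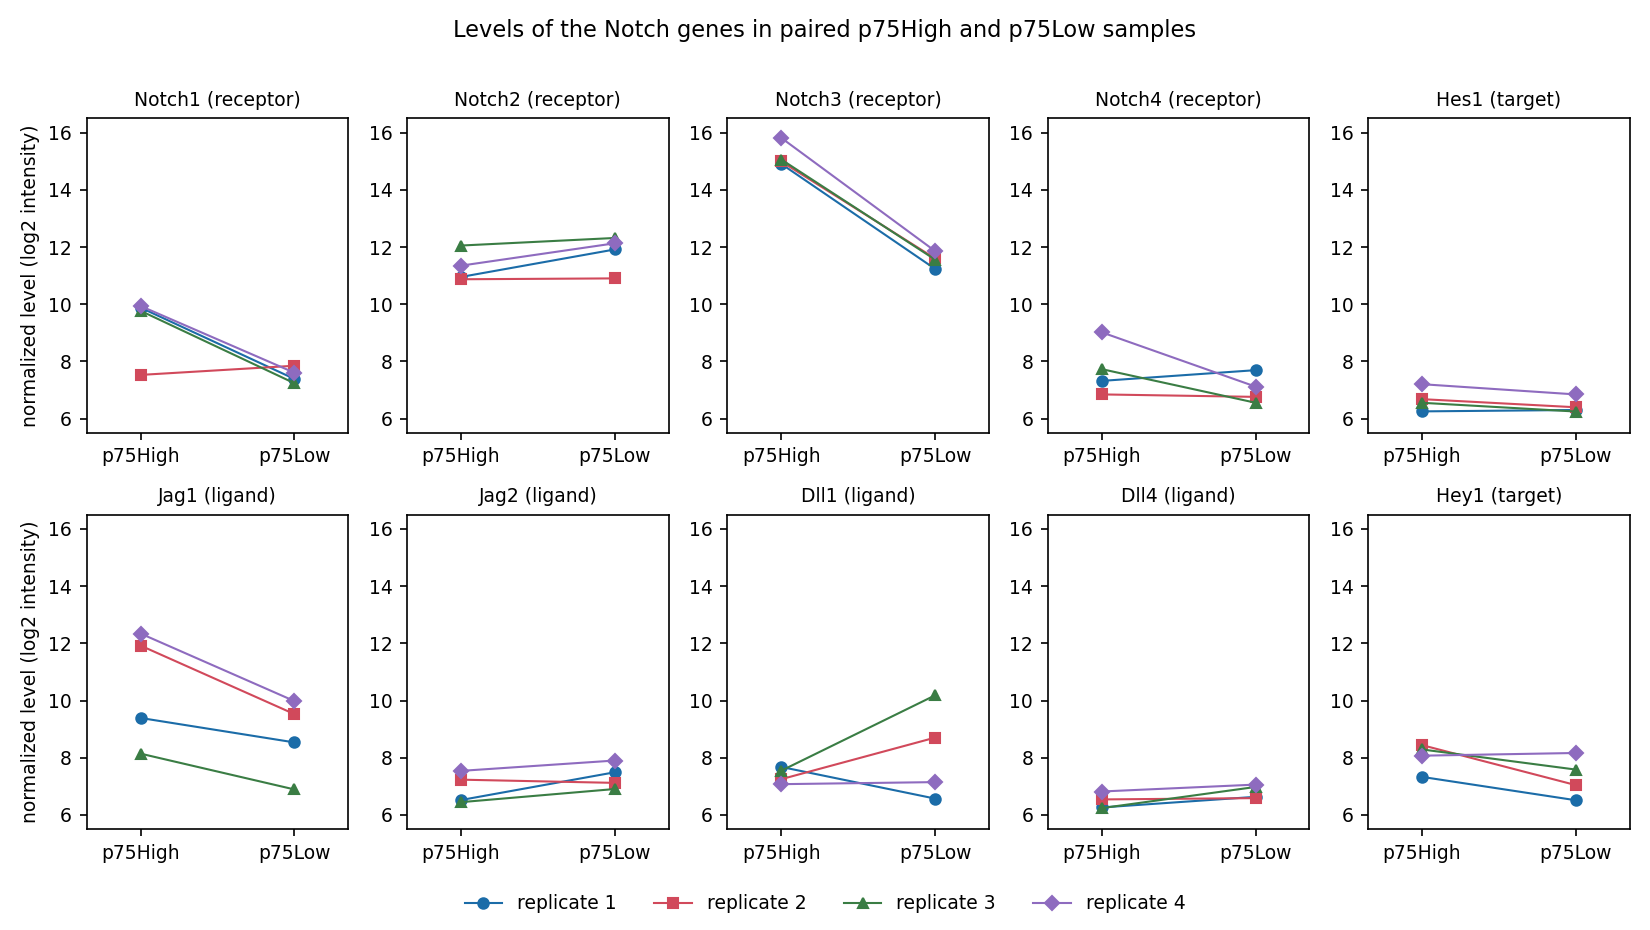
Levels of the 10 Notch genes, as normalized log2 brightness (vertical axis), in p75High (left) and p75Low (right) samples, with a line joining the samples of 1 array. Notch3 stands at 14.91 to 15.82 in p75High, above its 11.23 to 11.86 in p75Low, while the levels of each of the other 9 genes overlap between the populations.

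Among the receptors, Notch3 had levels of 14.91, 14.99, 15.06 and 15.82 in p75High against 11.23, 11.60, 11.56 and 11.86 in p75Low for replicates 1 to 4. Every p75High sample lay above every p75Low sample, by more than 3 on the log2 scale. No overlap in this direction was found for 1 of the 10 Notch genes and for 3.82% of the 24756 probes measured on all 4 arrays. The ratios were 3.67, 3.39, 3.50 and 3.96, with a mean of 3.63 ± 0.25 or 12.4-fold (SE 0.28, 95% interval 2.89 to 4.37, limma adjusted p = 0.0266). Of the same 24756 probes, 1.22% had a ratio at least as high, and 6.91% had an SD as small or smaller. The unnormalized mean brightness of the Notch3 spots was 34628, 55516, 45452 and 57706 in p75High and 3057, 2527, 2179 and 2237 in p75Low, and 0 spots on the arrays were saturated.

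The probes of Notch3 and of its paralogs Notch1 and Notch2 are shown because receptors of this family are alike in sequence, while each ratio rests on a single 60-base probe. Sequences and coordinates are those of the array file, on rat build rn4, with Notch3 at chr7:12688876-12688935 (minus strand), Notch1 at chr3:4634122-4634181 (minus strand) and Notch2 at chr2:192986165-192986224 (plus strand).
Notch3: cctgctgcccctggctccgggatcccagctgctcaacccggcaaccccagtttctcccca
Notch1: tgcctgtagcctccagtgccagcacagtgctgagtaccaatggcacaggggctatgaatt
Notch2: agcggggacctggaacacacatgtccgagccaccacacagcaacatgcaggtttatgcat
The longest run of bases that the Notch3 probe shared with the probe of any other receptor was 5 bases. The longest between any 2 receptor probes was 8 bases, for Notch1 and Notch4. Probes were compared only with each other, so these runs cannot show whether a probe matches the transcript of another receptor. That match, and the exon a probe lies in, were not analysed here.

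Notch1, the receptor named first in the family, split the arrays. Its levels were 9.88, 7.53, 9.77 and 9.94 in p75High against 7.39, 7.85, 7.24 and 7.60 in p75Low. Replicates 1, 3 and 4 were more than 2 higher in p75High on the log2 scale, and replicate 2 was not higher. Replicate 2 stood apart on the p75High side, while the p75Low levels lay close together. The ratios of 2.49, -0.32, 2.53 and 2.33 averaged 1.76 ± 1.39 (95% interval 0.13 to 3.39, limma adjusted p = 0.374). Without replicate 2 the mean was 2.45 (limma adjusted p = 0.221).

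Notch2 had levels of 10.95, 10.87, 12.05 and 11.35 in p75High against 11.92, 10.90, 12.32 and 12.13 in p75Low. The populations overlapped, and each p75High sample was below its partner, by 0.03 in replicate 2. The mean ratio was -0.51 ± 0.44 (95% interval -1.34 to 0.32, limma adjusted p = 0.543). Negative ratios on all 4 arrays were found for 13% of probes and for 2 of the 10 Notch genes, Notch2 and Dll4. With the scanner's own ratios both were above 0 in replicate 2, Notch2 at 0.13 and Dll4 at 0.09. The mean of Notch2 was -0.33 with median centring. Notch4, a receptor of vascular endothelium, had levels of 7.32, 6.85, 7.73 and 9.02 in p75High against 7.69, 6.76, 6.55 and 7.12 in p75Low. It was below its partner in replicate 1, near it in replicate 2 and above it in replicates 3 and 4. Its mean ratio was 0.70 ± 1.03 (95% interval -0.60 to 1.99, limma adjusted p = 0.582). It was 1.34 with the scanner's ratios, 1.05 without replicate 1 and 0.30 without replicate 4.

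Set against the other receptors on the same arrays, the Notch3 ratio was above the Notch2 ratio by 4.14 ± 0.65, above the Notch4 ratio by 2.94 ± 0.92 and above the Notch1 ratio by 1.87 ± 1.26. Each of these 3 differences had the same sign on all 4 arrays. Their exact two-sided sign-flip p was 0.125, the smallest that 4 arrays allow, and 0.3125 after adjustment over the 20 pairs of Notch genes compared, so no difference between 2 genes could pass.

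**Figure D2:**
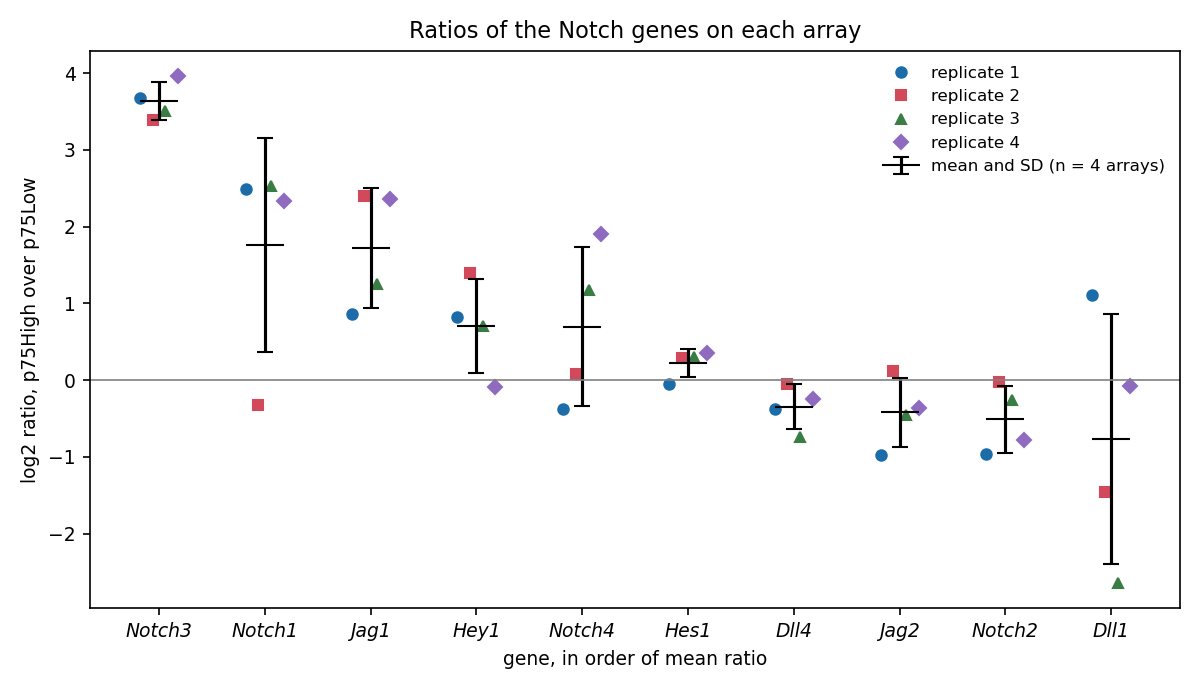
Log2 ratios of p75High over p75Low (vertical axis) for the 10 Notch genes, in order of their mean (horizontal axis), with 1 symbol per replicate and bars for the mean and SD over 4 arrays. The Notch3 points lie between 3.39 and 3.96, replicate 2 of Notch1 lies at -0.32 apart from the other 3 replicates, and Dll1 spans -2.64 to 1.11.

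Among the ligands, Jag1 was the 1 with a positive ratio on every array. Its levels were 9.39, 11.92, 8.14 and 12.34 in p75High against 8.53, 9.53, 6.89 and 9.98 in p75Low. The level differed widely between replicates, and the replicates had the same order in both populations, with replicate 3 lowest and replicate 4 highest. The ranges of the populations therefore overlapped, although each p75High sample was above its partner. The ratios of 0.86, 2.40, 1.25 and 2.36 averaged 1.72 ± 0.78 or 3.29-fold (95% interval 0.64 to 2.79, limma adjusted p = 0.265). Ratios above 0 on all 4 arrays were found for 12.5% of probes and for 2 of the 10 Notch genes, Notch3 and Jag1.

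Jag2, the other Jagged ligand, had levels of 6.52, 7.23, 6.44 and 7.54 in p75High against 7.49, 7.12, 6.90 and 7.90 in p75Low. The populations overlapped, and replicate 2 was the 1 array where p75High was above its partner. The mean ratio was -0.42 ± 0.44 (95% interval -1.26 to 0.41, limma adjusted p = 0.604). It was -0.81 with the scanner's ratios, -0.26 with median centring and -0.24 without replicate 1. The unnormalized p75High spot means of Jag2 were 100, 181, 111 and 128, over local backgrounds of 56.5, 61, 61 and 55.5. Signal close to background therefore limits the Jag2 ratio. Dll1, a Delta ligand known for lateral inhibition between neighbouring cells, had levels of 7.68, 7.25, 7.55 and 7.07 in p75High against 6.57, 8.70, 10.18 and 7.15 in p75Low. Its p75High levels lay close together while its p75Low levels ran from 6.57 to 10.18, and the ratio was 1.11 in replicate 1 and -2.64 in replicate 3. The mean ratio was -0.76 ± 1.63 (95% interval -2.62 to 1.09, limma adjusted p = 0.665). It was -0.14 without replicate 3 and -1.39 without replicate 1.

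Dll4, the Delta ligand of sprouting blood vessels, had levels of 6.26, 6.54, 6.24 and 6.82 in p75High against 6.63, 6.59, 6.98 and 7.06 in p75Low. Each p75High sample was below its partner, by 0.05 to 0.74, other than in replicate 2 by the scanner's ratios, and the populations overlapped. The mean ratio was -0.35 ± 0.29 (95% interval -1.11 to 0.41, limma adjusted p = 0.631). It was -0.87 with the scanner's ratios and -0.22 without replicate 3. The unnormalized p75High spot means of Dll4 were 82, 97, 90 and 88, over local backgrounds of 62, 57, 57.5 and 57. Signal close to background therefore limits the Dll4 ratio and its sign. On the same arrays the Jag1 ratio was above that of Jag2 by 2.14 ± 0.46 and above that of Dll4 by 2.07 ± 0.62, with 1 sign on all 4 arrays for both pairs. It was above that of Dll1 by 2.48 ± 1.94, on 3 of 4 arrays.

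Hes1 and Hey1 encode repressors that active Notch receptors switch on. The Hes1 probe was dim, being well above background on 3 arrays in p75High and on 1 array in p75Low. Each of the other 9 Notch probes was so on all 4 arrays in both populations. Levels of Hes1 were 6.25, 6.68, 6.55 and 7.20 in p75High against 6.30, 6.40, 6.25 and 6.84 in p75Low. Replicate 4 was highest in both populations, and the groups overlapped. The mean ratio was 0.22 ± 0.18 (95% interval -0.49 to 0.94, limma adjusted p = 0.738). The scanner's own ratios for Hes1, which are background-subtracted and dye-normalized, were 0.25, 1.15, 1.07 and 1.20, with a mean of 0.92.

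Hey1 had levels of 7.33, 8.44, 8.29 and 8.07 in p75High against 6.51, 7.04, 7.58 and 8.16 in p75Low. It was above its partner in replicates 1 to 3 and 0.09 below it in replicate 4, and the populations overlapped. The ratios of 0.82, 1.40, 0.70 and -0.09 averaged 0.71 ± 0.61 (95% interval -0.24 to 1.66, limma adjusted p = 0.489). With the scanner's ratios the mean was 1.24. The Hey1 and Hes1 ratios differed by 0.48 ± 0.69.

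In the order of mean ratio, the Notch genes ran Notch3, Notch1, Jag1, Hey1, Notch4, Hes1, Dll4, Jag2, Notch2 and Dll1. Of the 9 pairs of neighbours in this order, 6 had differences whose sign changed between arrays. The other 3 were Notch3 over Notch1, Jag1 over Hey1 by 1.01 ± 1.04 and Hes1 over Dll4 by 0.57 ± 0.34. In all, 8 of the 20 pairs had 1 sign on all arrays.

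The start regions of Hes1, the textbook target of the pathway, and of Notch3, the gene that passed, are shown with the core of the sequence that RBPJ binds, TGGGAA, in capitals, searched on both strands. Each window runs from 250 bases before to 50 bases after the gene's start, from RefSeq on build GRCr8, at chr11:84212996-84213295 (minus strand) for Hes1 and at chr7:11834536-11834835 (minus strand) for Notch3.
Hes1: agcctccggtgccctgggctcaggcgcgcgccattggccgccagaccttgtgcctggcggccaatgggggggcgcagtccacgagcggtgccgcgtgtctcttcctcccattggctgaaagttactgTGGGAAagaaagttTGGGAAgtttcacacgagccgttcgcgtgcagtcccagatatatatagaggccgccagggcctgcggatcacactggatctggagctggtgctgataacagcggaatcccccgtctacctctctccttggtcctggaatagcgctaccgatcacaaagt
Notch3: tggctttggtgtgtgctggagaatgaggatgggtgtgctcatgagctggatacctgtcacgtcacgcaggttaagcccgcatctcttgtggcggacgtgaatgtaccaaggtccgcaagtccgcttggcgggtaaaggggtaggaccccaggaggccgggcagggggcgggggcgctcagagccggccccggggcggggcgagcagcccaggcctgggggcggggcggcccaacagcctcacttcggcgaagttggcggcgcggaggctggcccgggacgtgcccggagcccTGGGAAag
The matches in Hes1 lay 123 and 109 bases before the start, and the match in Notch3 lay 42 bases after it. Windows were found for 8 of the 10 Notch genes, and TGGGAA was in those of 4 of them, Hes1, Notch3, Dll1 and Notch4. Of all 33469 windows in the table, 25.7% held it. The longer GTGGGAA, which contains TGGGAA, was in the windows of Hes1 and Dll1 and in 6.29% of all windows. A match is a description of the letters and not a site of binding.

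The wider pathway was described from a list of 53 other Notch genes, of which 40 had a probe and 36 were kept. None of the 36 passed in limma. At an unadjusted p under 0.05, 2 were higher in p75High (Hdac1 and Heyl) and 2 were lower (Ctbp1 and Psen2). Beside these, 1431 of the 24872 tested probes were higher and 1687 lower at that threshold. All 36 genes had a median ratio of -0.05. Their median SD over arrays was 1.29. The probes that were not kept were too dim, and the other 13 listed genes, Rbpj among them, were not analysed here.

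By role, the median ratio was -0.23 for 4 ligand-like genes, -0.74 for 7 genes of receptor cleavage, 0.22 for 4 genes of receptor glycosylation, -0.08 for 6 genes of endocytosis and ubiquitination, 0.26 for 8 genes of the nuclear complex and -0.08 for 7 other Hes and Hey genes. Counted over all 36, 4 had a positive and 2 a negative ratio on every array. Hdac1, a histone deacetylase found in corepressor complexes, had the highest mean of these, with ratios of 1.82, 2.16, 3.36 and 5.99 (mean 3.33 ± 1.89, limma adjusted p = 0.268). Numbl, related to the Notch inhibitor Numb, had 1.48, 4.76, 0.02 and 0.19 (mean 1.61 ± 2.20, limma adjusted p = 0.523), and a mean of 0.56 without replicate 2.

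Psen2, a catalytic subunit of gamma-secretase, had -0.89, -2.02, -1.17 and -0.57 (mean -1.16 ± 0.62, limma adjusted p = 0.342). Dtx2, a ubiquitin ligase of the Deltex family, had -0.20, -2.95, -0.80 and -0.24 (mean -1.05 ± 1.30, limma adjusted p = 0.514), and a mean of -0.41 without replicate 2. Heyl, a Hey-family target, and Ctbp1, a corepressor, were singled out after their values were seen. The Heyl ratios were 2.04, 2.24 and 1.54 in replicates 1 to 3 (mean 1.94 ± 0.36, n = 3, limma adjusted p = 0.249), and its spot in replicate 4 was left out as an outlier. Ctbp1 averaged -1.72 ± 1.43 (limma adjusted p = 0.386).

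**Figure D3:**
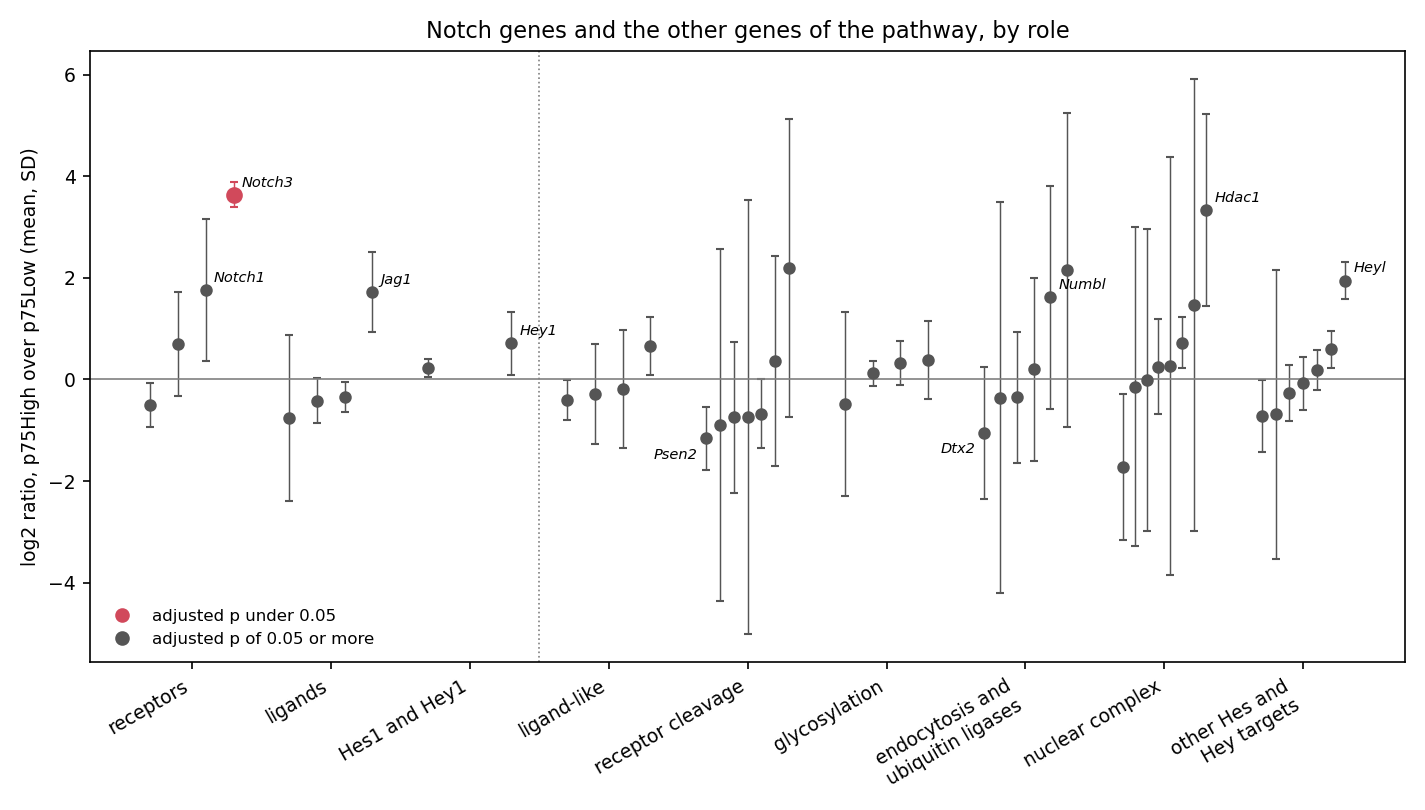
Mean log2 ratio of p75High over p75Low (vertical axis, bars are SD over arrays) for the 10 Notch genes left of the dotted line and the 36 other pathway genes right of it, by role. Notch3 in red at 3.63 is the 1 gene with an adjusted p under 0.05, and the means of the other pathway genes run between -1.72 and 3.33.

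Markers of cells known for Notch3 were set beside it. Of 9 markers of smooth muscle and pericytes, 7 had a probe, 6 were kept and 0 passed in limma (2 higher and 0 lower at an unadjusted p under 0.05), with a median ratio of 0.18. Their summed normalized brightness was 15847 to 37625 in p75High and 1391 to 27321 in p75Low. Of the markers named, Mcam, an adhesion molecule, read 5.15 ± 2.27 (2.48 ± 1.42 by its other kept probe), and Tagln, an actin-binding protein of smooth muscle, read 0.45 ± 3.76. Mcam and Cspg4, the NG2 proteoglycan of pericytes and glial progenitors, were the 2 with a positive ratio on all 4 arrays (Cspg4 0.89 ± 0.19). The other kept markers, Cnn1, Des and Rgs5, had mean ratios below 0 (-0.09 ± 1.62, -0.11 ± 0.36 and -0.17 ± 0.72), and Pdgfrb was not kept. Fibroblast markers had a sum of 60713 to 84353 in p75High and 13370 to 35056 in p75Low and a median ratio of -0.89 over 7 kept genes, and 0 passed in limma by their brightest probes (2 higher and 2 lower at an unadjusted p under 0.05). Col1a1, a collagen chain, read 2.73 ± 1.20 by its brightest probe, and 3.56 ± 1.70 and 3.79 ± 0.58 by its other kept probes, the last of which passed (limma adjusted p = 0.0363). Postn, the matrix protein periostin, read 4.80 ± 1.60. Dcn and Lum were too dim to be kept. Dcn was well above background on 1 array in p75High and 0 in p75Low, and Lum on 0 in p75High and 1 in p75Low. Other fibroblast markers went the other way from Col1a1 and Postn. Col1a2, also a collagen chain, read -2.71 ± 1.48 (-0.91 ± 2.18 by its other kept probe), Col3a1 -2.42 ± 3.91 and Thy1 -0.99 ± 0.38. By their brightest probes, Col1a2 and Thy1 were negative on all 4 arrays, and Col1a1 and Postn were positive on all 4. The part of these cells, and of the microglia and macrophages above, in the ratios of Notch3 and the other Notch genes was not tested.

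Other cell types were checked the same way, and 0 of their markers passed in limma. At an unadjusted p under 0.05, 2 endothelial and 1 epithelial marker were higher and 1 neuronal marker was lower. For these and the marker lists above, the background was 1431 higher and 1687 lower of the 24872 tested probes. Endothelial markers, of note for Notch4 and Dll4, had a median ratio of 0.46 over 7 kept and tested genes. Kdr, which had a reading on 1 array, was not among these. The 7 summed to 3227 to 5960 in p75High and 1879 to 5446 in p75Low. Pecam1 was not kept, being well above background on 0 arrays in p75High and 1 in p75Low. Egfl7 read 0.16 ± 0.61 and Cldn5 1.23 ± 0.80. Neuronal markers had a median of -0.36 over 6 kept genes and sums of 753 to 1218 in p75High and 1169 to 1444 in p75Low, with Tubb3 at -0.40 ± 0.64 and Omp at -0.32 ± 1.16 (0.35 ± 0.73 by its other kept probe). Stmn2 was not kept, being well above background on 1 array in p75High and 0 in p75Low. Epithelial markers had a median of 0.87 over 5 kept genes and sums of 1404 to 2641 in p75High and 909 to 1403 in p75Low, with Krt18 at 0.08 ± 0.32 and Krt14 at 1.57 ± 0.63 (0.39 ± 0.61 by its other kept probe).

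The genes whose 4 ratios were most like those of Notch3, Jag1 and Hey1 were sought among 7937 kept probes of other genes with a symbol, by the root mean square difference over the 4 arrays. For Notch3 they included Sppl2b, an intramembrane protease, at 0.485 and Hsp90aa1, a chaperone, at 0.520. Sppl2b had ratios of 4.15, 3.85, 3.06 and 4.52 for replicates 1 to 4. For Jag1 they were Iapp, the islet hormone amylin, at 0.144, Slc7a1, an amino acid transporter, at 0.236 and Cblc, a ubiquitin ligase, at 0.258. For Hey1 they were Cldn8, a claudin, at 0.0741, Foxj1, a regulator of cilia, at 0.203 and Gnrh1, a reproductive hormone, at 0.224.

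The Notch3 ratio was set against each change in processing. It lay between 3.52 and 3.92 under all 12 alternatives. Its adjusted p was under 0.05 with no filter on dim probes, with a stricter filter, without background correction, with outlier spots kept, with 1 probe per gene and with the pairing ignored. It was 0.0509 with median centring, 0.061 with the scanner's ratios and 0.103 to 0.144 without any 1 of replicates 1 to 4, where 0 probes passed in limma (880 to 1301 higher and 1135 to 1351 lower at an unadjusted p under 0.05).

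**Figure D4:**
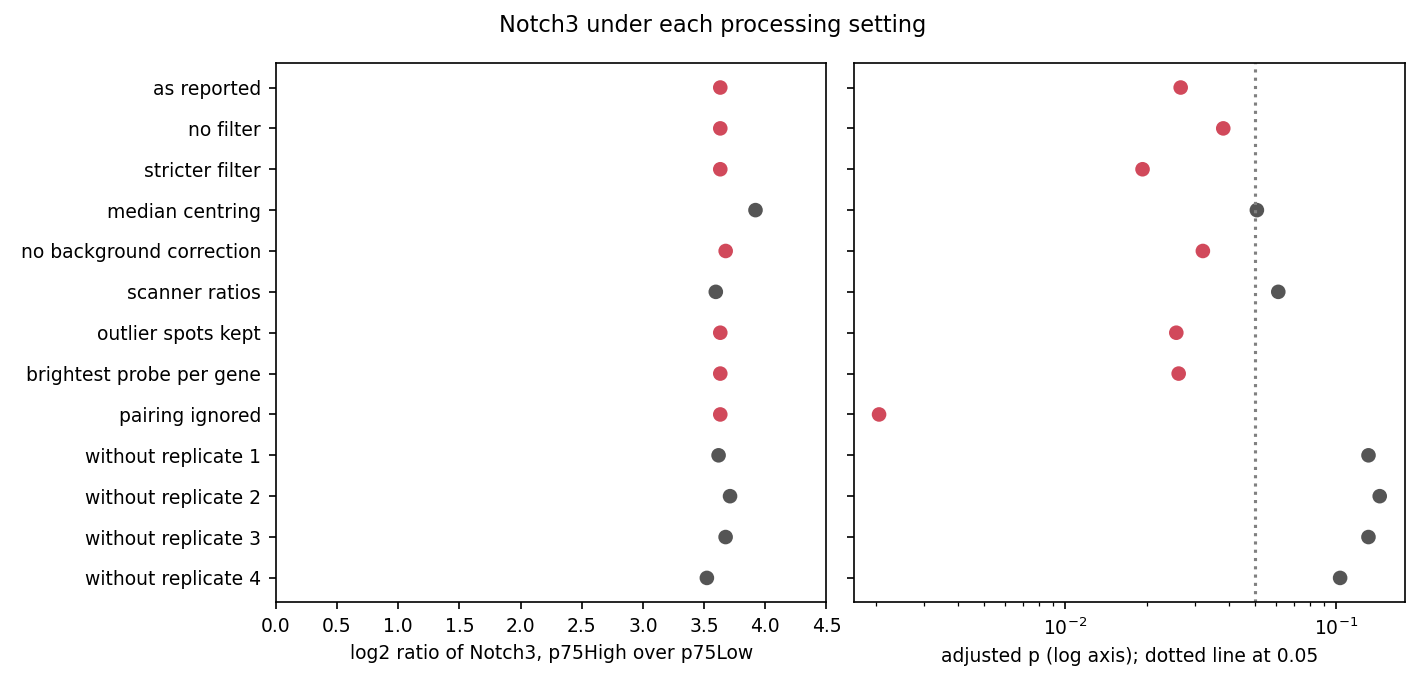
Notch3 under the reported processing and 12 alternatives (rows), as the log2 ratio of p75High over p75Low (left) and the limma adjusted p on a log axis (right, dotted line at 0.05). The ratio stays between 3.52 and 3.92, and the adjusted p lies above 0.05 with median centring, with the scanner ratios and without any 1 replicate (grey points).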

How the data were processed

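Paired p75High and p75Low samples of 4 replicates were measured on two-colour Agilent arrays (rat design 014879), read with Feature Extraction 10.5.1.1 per the file headers, and given as 10.5 in the submitters' processing notes. Per the labels, mRNA was amplified by a global PCR and 250 ng of cDNA was labelled. The deposited intensity values were, per the file headers, unnormalized spot means and local background medians. The deposited log10 values (Cy5 over Cy3) were, per the file headers, background-subtracted and dye-normalized. The authors' value table held the same log10 ratios (largest difference 0, column medians 0).

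Background was corrected by normexp with an offset of 50, followed by within-array loess with a span of 0.3, in limma 3.58.1 under R 4.3.3, with 1639 control spots and outlier spots at weight 0. Of 173516 gene readings, 1112 (0.641%) were outliers and were left out. Repeat spots were averaged. Probes well above background in 1 channel on at least 3 of 4 arrays were kept (24941), and 24872 with enough readings were tested. The log2 ratio was fitted against 0 with lmFit and eBayes, two-sided, with Benjamini-Hochberg adjustment. The fit was also run on simulated ratios with independent normal noise, which held no dye or array effects and so cannot bear on those of these data. Levels came from loess and between-array (Aquantile) normalization. The number of arrays limits the precision. All arrays lay on 1 slide with 1 scan.

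The series' design text states the pairing. After removal of group means, channels of 1 array correlated at 0.127, 0.0665, 0.0677 and 0.265 for replicates 1 to 4, and at most at 0.0492 with another array. Gene names outside the members were updated through a RefSeq table of GRCr8 (10835 probes by accession, 5196 by symbol, 3478 by older symbol, 21503 unmatched), and 0 further probes updated to a member. A pathway or marker gene was represented by its brightest kept probe.

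The members, lists and tests were chosen with earlier results of these data known. Named were all members, the pathway genes past the threshold or else the 2 highest and 2 lowest means with 1 sign on all arrays, Ngfr, the 2 brightest markers of each cell type and the 3 genes most like the receptor, ligand and target with the smallest p. Some genes that these rules took are left out of the text, and some markers outside the rules are named. Alternatives changed the filter, background correction, normalization, outlier spots, probes per gene, pairing and replicates.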

Additional observations from a re-analysis of the deposited data

Results flagged for a closer look

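Of 47 sets of 4 values examined for a lone array, 5 held one whose gap to its nearest neighbour was large against the range of the 4, and chance gives about 1 in 20. For Notch1, replicate 2 had a ratio of -0.32, against 2.33 to 2.53 on the other arrays, and a p75High level of 7.53, against 9.77 to 9.94. For Notch3, replicate 4 had a p75High level of 15.82, against 14.91 to 15.06. For Tyrobp, replicate 1 had a ratio of -3.44, against -5.02 to -4.89. For Cldn5, replicate 1 had a ratio of 2.43, against 0.80 to 0.87.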

How the results depend on the processing

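The number of Notch genes past the threshold was 1 as reported, 0 with median centring, 0 with the scanner ratios and 0 to 0 without each replicate in turn. The number of probes past it was 163 as reported, 74 with no filter, 335 without the pairing (no replicate block), 277 by the scanner ratios and 0 to 0 without each replicate. At an unadjusted p under 0.05, 1431 probes were higher and 1687 lower as reported, and 1799 were higher and 1338 lower with median centring, which turned this balance round. With the pairing ignored, the adjusted p of Notch3 was 0.00205 and no other Notch gene changed side. No other pathway gene passed under any alternative. No Notch gene changed direction. Median centring moved the median of all tested probes to 0.13, against -0.03 as reported. Without each replicate in turn, Egfl7 read -0.075 to 0.42, Krt18 -0.063 to 0.20, Tagln -1.09 to 1.96 and Omp -0.63 to 0.24, none past the threshold. The sign opposed that reported without replicate 1 for the first 3 of these and without replicate 2 for Omp. The cause was not tested. Hes1 was too dim for the stricter filter. With 4 arrays on 1 slide and no dye swap, dye and population cannot be told apart. Signal close to background limits what the Hes1, Dll4 and Jag2 probes can show.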
